A study of Mus musculus with 9 samples.

Results

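Rab GTPases are small membrane switches that direct vesicle traffic, and their mRNAs were followed here in MH-S cells, an established line of mouse alveolar macrophages. Members were the genes whose symbol is Rab followed by a number and at most 1 letter and 1 further digit, with a mean deposited read count of at least 20 over the 9 libraries. The name pattern matched 51 of the 14771 genes in the table, and 42 of them reached the count minimum. The 9 others had mean counts of 0.444 to 10.8. The member nearest the minimum was Rab39, with a mean of 31.2 counts. All 42 members were among the 11281 genes tested.

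The libraries formed 3 groups of 3. CON cells received medium alone. LPS cells received 1 µg/ml lipopolysaccharide, the bacterial outer membrane component sensed by the receptor TLR4, for 4 h. SUR cells are labelled with suramin, a polyanionic drug, and the treatment protocol pairs 200 µM suramin with LPS at 1 µg/ml for 4 h. LPS was therefore taken to be present in SUR. The cells are 1 immortalised line in each group, and no label says that the replicates were separate cultures. In such bulk samples, fewer cells of a type and less RNA per cell cannot be told apart.

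A Rab protein is inactive when it holds GDP and recruits its effectors when it holds GTP. Guanine nucleotide exchange factors (GEFs) turn it on at the right membrane, GTPase-activating proteins (GAPs) turn it off, and lipid-modifying enzymes and GDI proteins move it between membrane and cytosol. Each membrane carries its own Rabs, so that a macrophage phagosome first gains those of early endosomes and later those of late endosomes and lysosomes as it matures. Secretory Rabs move granules and newly made proteins, such as cytokines, to the cell surface.

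Library totals ran from 15729402 to 16675250 counts. Of 15 listed markers of macrophages and alveolar macrophages, 13 were in the table and 9 were tested, with Cd68 at 841 to 1035 CPM (counts rescaled for depth by TMM) in every library. The alveolar markers Siglecf, Marco, Chil3 and Pparg were at or near 0, with at most 0.576 CPM for Pparg, while Itgax was at 7.03 to 13.3 CPM and Mrc1 at 70.1 to 191 CPM. Of 15 markers of epithelial, fibroblast, endothelial and lymphocyte cells, 7 were in the table and 0 were tested, and their summed level was at most 0.34 CPM in any library. The LPS response gene Tnf was at 404, 92.1 and 22.1 CPM in CON, 1932 to 2352 CPM in LPS and 1159 to 1597 CPM in SUR, so the CON libraries already differed from each other in this gene.

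The libraries numbered 1 stood apart in every group, and most tested macrophage markers, but not Csf1r and Fabp4, were lowest in them in all 3 groups. Lyz2, the macrophage lysozyme, was at 1781, 1760 and 1750 CPM in the number 1 libraries of CON, LPS and SUR and at 3453 to 3890 CPM in the others. Mrc1, the mannose receptor, was at 70.1, 71.7 and 74.7 CPM in the number 1 libraries and at 167 to 191 CPM in the others. Ptprc, Itgam, Adgre1, Itgax and Cd68 were also lowest in the number 1 library of each group, by smaller relative margins. Cd68 was at 971 CPM in CON 1 against 987 and 1035 CPM in CON 2 and CON 3. It was at 909 CPM in LPS 1 against 1029 and 1034 CPM, and at 841 CPM in SUR 1 against 954 and 922 CPM. Csf1r was at 993 CPM in CON 1, above 897 and 919 CPM in CON 2 and CON 3, but at 1137 CPM in LPS 1, below 1176 and 1179 CPM. The part of these marker differences in the Rab values was not tested. The number 1 library was the lowest of its group in all 3 groups for 14 members (33.3% of 42, against 25.8% of all tested genes), and the highest in all 3 groups for 8 members (19.0%, against 27.7%). Rab29, which works at lysosomes with the kinase LRRK2, lay lower in the number 1 libraries by a mean of 0.74 on the log2 scale, with differences of -0.66 in CON, -0.80 in LPS and -0.76 in SUR. Rab31, an early endosome and Golgi Rab, had a mean difference of -0.57, and the recycling Rab Rab4a had one of -0.53. Rab22a, of early endosomes, lay on the other side at 0.47. Because such differences recurred with the same sign in the 3 groups, each comparison was also fitted with the replicate number as a block, and values from that fit are named as such.

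**Figure D1:**
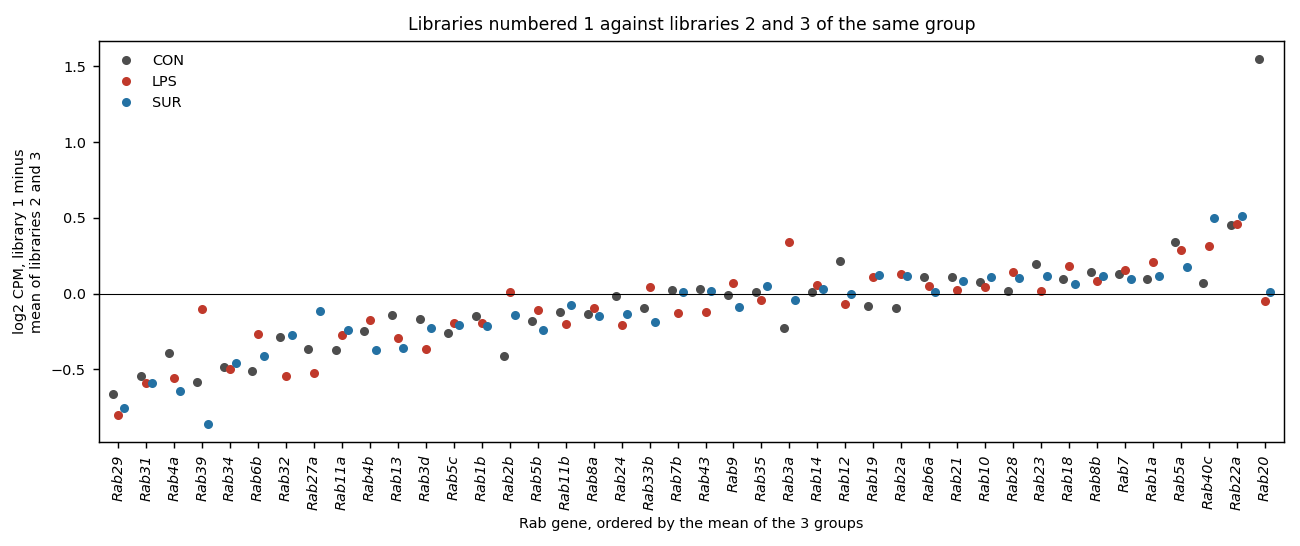
Difference in log2 CPM (vertical axis) between the library numbered 1 and the mean of libraries 2 and 3 of the same group, for each of the 42 Rab genes (horizontal axis), with 1 point per group. Among genes with all 3 points on 1 side, the means run from -0.74 at Rab29 to 0.47 at Rab22a. Rab20 has a mean of 0.50 but is high in CON 1 alone, at 1.55.

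Levels between genes were compared on FPKM, which scales for transcript length. Rab7, the Rab of late endosomes and lysosomes, had the highest level at a mean of 300.1 FPKM over the 9 libraries, and it alone held 15.7% of the summed FPKM of the 42 members. Rab5c, of early endosomes, followed at 136 FPKM, then Rab1b at 125 and Rab1a at 111, which both act between endoplasmic reticulum (ER) and Golgi, with Rab31 between them at 114. Rab31 had an SD of 21.8 to 25 FPKM in the 3 groups, so its place beside Rab1b and Rab1a lies within its spread. The group means of Rab5c lay above those of Rab1a by more than their SDs, at 137 against 113 FPKM in CON, 128 against 108 in LPS and 143 against 113 in SUR. In all, 26 members lay above 30 FPKM and 11 below 10 FPKM. The lowest were Rab39 at 0.704 FPKM, Rab27a at 2.07 FPKM and Rab3a at 3.39 FPKM. Rab39 belongs to the phagosome group, and Rab27a and Rab3a act in regulated secretion.

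**Figure D2:**
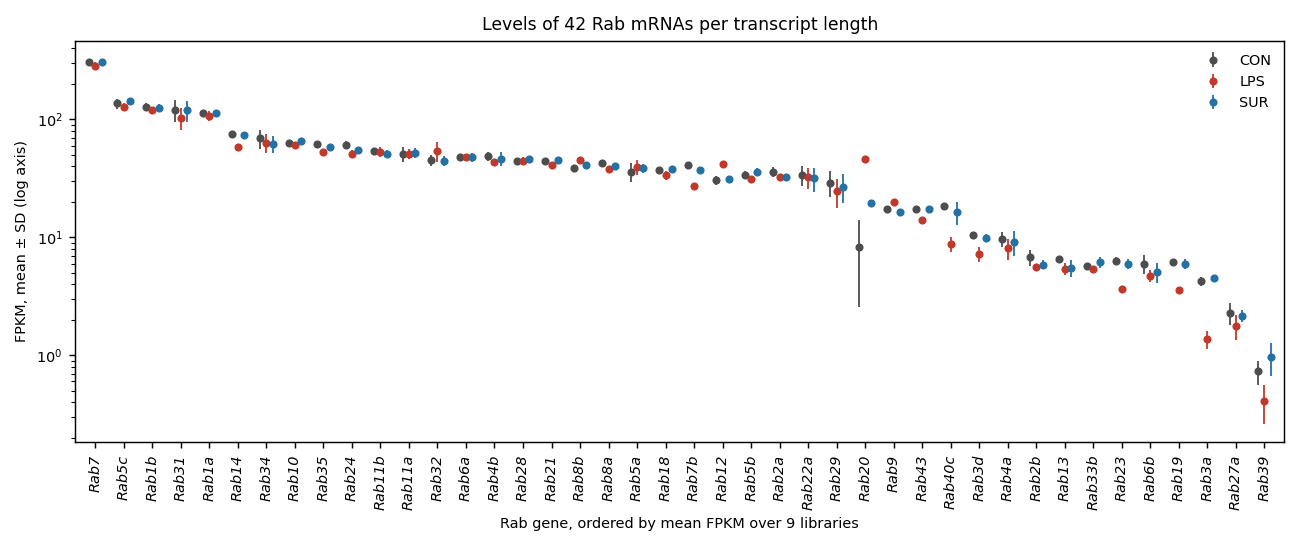
Mean FPKM with SD (vertical axis, logarithmic) of the 42 Rab genes in CON, LPS and SUR (3 libraries each), ordered by the mean over 9 libraries. Rab7 stands highest at about 300 FPKM, most genes have overlapping groups, and Rab20, Rab40c, Rab23, Rab19 and Rab3a show visible gaps between LPS and the other groups.

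A minority of the Rab mRNAs differed between LPS and CON, in both directions. With edgeR's quasi-likelihood test and Benjamini-Hochberg adjustment over all tested genes at 0.05, 4 of 42 members were higher in LPS than in CON (Rab20, Rab12, Rab8b and Rab9), which is 9.52% of members against 8.98% of all tested genes. The 6 that were lower (Rab3a, Rab40c, Rab19, Rab23, Rab7b and Rab14) made 14.3% against 9.36%. The higher share is near that of all genes, and the lower share rests on 6 members. The median log2 fold change was 0.01 over members and -0.01 over all tested genes, with median sizes of 0.14 and 0.16. With the replicate block, 8 members were higher (19.0%, against 20.1% of all tested genes) and 9 lower (21.4%, against 21.7%), and these held all 10 members called without it. Within all 3 replicate numbers, 14 members were higher (33.3%, against 30.2%) and 15 lower (35.7%, against 32.9%). Under upper-quartile scaling the split was 3 higher and 9 lower, and it was the same on log2 FPKM with either pseudocount. The median of all genes moved by -0.10 with upper-quartile scaling and by -0.14 and -0.13 on log2 FPKM at pseudocounts of 0.1 and 1. Shares of all tested genes were not taken under these settings, so these counts cannot be set against them.

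In SUR, 6 members were higher than in LPS (14.3%, against 9.29% of all tested genes) and 4 were lower (9.52%, against 7.93%) by the same test. Both comparisons use the same LPS libraries, so an unusual LPS library would enter both, with opposite signs. With the block, 9 were higher (21.4%, against 22.6%) and 11 lower (26.2%, against 22.7%). Within all 3 replicate numbers, 11 were higher (26.2%, against 33.7%) and 19 lower (45.2%, against 35.6%). Upper-quartile scaling gave 8 higher and 3 lower, and log2 FPKM gave 9 higher and 2 lower at a pseudocount of 0.1. The split between directions therefore moves with the scaling, and the median of all genes moved by 0.09 and 0.14 on these 2 scales. Without shares of all tested genes under them, the moved split is no result about Rab genes in particular.

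Between SUR and CON, edgeR called 0 members higher (0.39% of all tested genes were) and 0 lower (0.0355% were), and 1 member, Rab20, had an unadjusted p under 0.05. DESeq2 called 1 member higher, and its share over all tested genes was not taken. The blocked fit called 1 member higher, Rab20 (2.38% of members, against 7.37% of all tested genes), and 1 lower, Rab34 (2.38%, against 4.18%). Within all 3 replicate numbers, 9 members were higher (21.4%, against 23.2%) and 12 lower (28.6%, against 25.4%). Apart from Rab20, the log2 differences between SUR and CON that lay farthest from 0 relative to their standard errors included Rab7b at -0.14 (SE 0.07), Rab24 at -0.17 (SE 0.09), Rab35 at -0.09 (SE 0.05) and Rab13 at -0.27 (SE 0.15). The absence of a call does not show that the levels were the same.

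**Figure D3:**
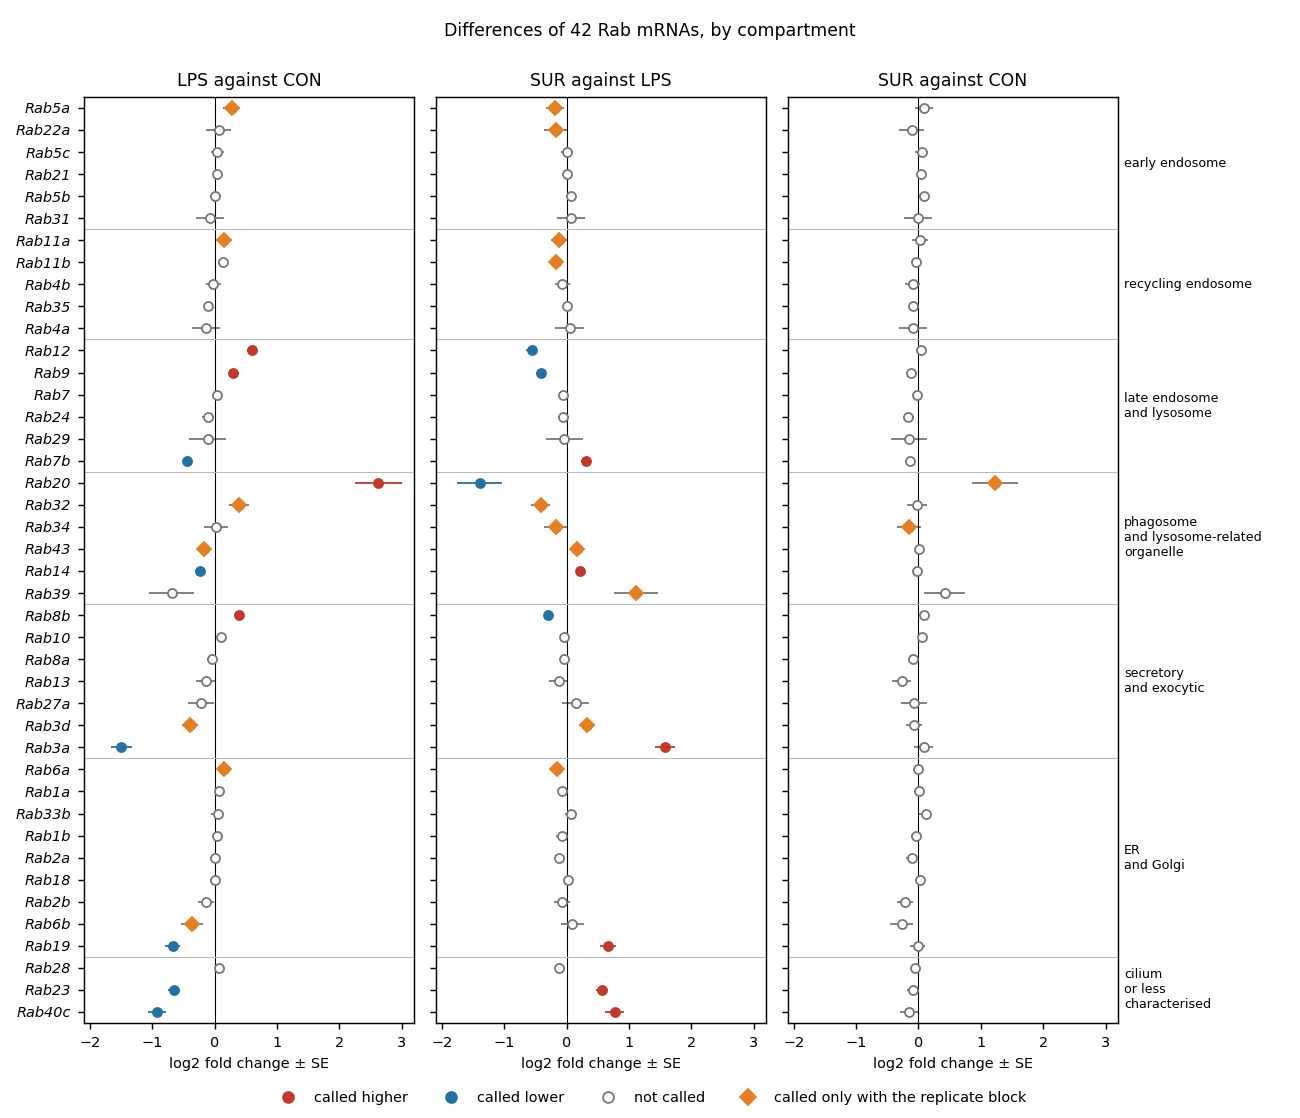
Log2 fold change with its standard error (horizontal axes) of the 42 Rab genes in the 3 comparisons, grouped by compartment (rows), with 3 libraries per group. Red and blue points passed edgeR's test and orange points passed it only with the replicate block; Rab20 at 2.62 and Rab3a at -1.50 are the extremes of LPS against CON, and none passed without the block in SUR against CON.

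The compartments described next hold 3 to 9 members each. Their counts of calls are too small to be read against the shares of all tested genes given above or against each other. Early endosome Rabs are the first to act on newly taken up material. Of the 6 in this group (Rab5a, Rab5b, Rab5c, Rab21, Rab22a and Rab31), 0 were called in any comparison by edgeR without the block, with log2 fold changes of -0.08 to 0.27 between LPS and CON. Rab5a, which drives fusion of early endosomes, was at 84.9, 76.2 and 58.9 CPM in CON, 100.5, 86.9 and 77.8 CPM in LPS and 84.3, 75.5 and 73.6 CPM in SUR. The groups overlapped, but LPS was higher than CON within each number, by 0.24, 0.19 and 0.40 on the log2 scale. Its log2 fold change between LPS and CON was 0.27 (SE 0.14, adjusted p = 0.259 by edgeR), and with the block the adjusted p was 0.0038. Between SUR and LPS it was -0.18 (SE 0.14, adjusted p = 0.447, and 0.0319 with the block). Rab22a joined it as lower in SUR than in LPS with the block alone, at -0.17 (edgeR adjusted p = 0.645 without and 0.0118 with the block).

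The 5 recycling endosome Rabs (Rab4a, Rab4b, Rab11a, Rab11b and Rab35), which return receptors to the surface, also had 0 calls by edgeR in any comparison without the block. Rab11a, the best known of them, was at 85.1, 112 and 108 CPM in CON, 99.4, 122 and 118 CPM in LPS and 92.8, 115 and 104 CPM in SUR. The number 1 library was lowest in each group, and the groups overlapped. The log2 fold change was 0.15 between LPS and CON (SE 0.13, edgeR adjusted p = 0.522, and 0.0119 with the block). It was -0.12 between SUR and LPS (SE 0.13, edgeR adjusted p = 0.599, and 0.0344 with the block), a sign that turned to 0.02 on log2 FPKM. Rab11b, its close relative, was lower in SUR than in LPS only with the block, at -0.17 (edgeR adjusted p = 0.215 without and 0.0157 with it).

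Among the 6 late endosome and lysosome Rabs, the abundant Rab7 was not called in any comparison and 3 others were. Rab7, which governs fusion with lysosomes and phagosome maturation, was at 600.4, 556 and 542 CPM in CON, 621, 559 and 557 CPM in LPS and 584, 565 and 528 CPM in SUR. The groups overlapped throughout. Its log2 fold change between LPS and CON was 0.03 (SE 0.07, edgeR adjusted p = 0.846), and it changed sign to -0.06 with upper-quartile scaling and to -0.10 on log2 FPKM. Between SUR and LPS it was -0.05 (SE 0.07, edgeR adjusted p = 0.72), and 0.04 and 0.09 on those scales. Rab24, linked to autophagy, and Rab29 were not called in any comparison.

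Rab12, which acts on degradation of surface receptors and on autophagy (chr17:66494512-66519729 in GRCm38), rose with LPS. It was at 56.4, 50.4 and 47.0 CPM in CON, 75.3, 82.1 and 75.9 CPM in LPS and 52.5, 56.2 and 49.3 CPM in SUR. All LPS libraries lay above all others, and SUR lay within the range of CON. The log2 fold change was 0.60 between LPS and CON (SE 0.08, edgeR adjusted p = 0.00127) and -0.56 between SUR and LPS (SE 0.08, edgeR adjusted p = 0.00244). Both calls held under all 18 alternatives that were run.

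Rab9, which returns mannose 6-phosphate receptors from late endosomes to the Golgi (chrX:166457253-166479867), was at 19.3, 20.9 and 18.04 CPM in CON, 24.7, 24.4 and 22.6 CPM in LPS and 17.2, 18.5 and 18.2 CPM in SUR. The LPS libraries lay above the rest. It was higher in LPS than in CON by 0.30 on the log2 scale (SE 0.08, edgeR adjusted p = 0.0381, and 0.00455 with the block). It fell by 0.41 from LPS to SUR (SE 0.08, edgeR adjusted p = 0.0103, and 0.000672 with the block). The first call was fragile: it was lost under 12 of 18 alternatives, among them upper-quartile scaling (edgeR adjusted p = 0.135), no low-count filter (0.053), log2 FPKM with limma (0.0818 and 0.0825) and the omission of the 3 libraries numbered 1 (0.0542). By single libraries it was lost without CON 1 (0.0736), CON 3 (0.143), LPS 1 (0.103), LPS 2 (0.109), LPS 3 (0.0563), SUR 2 (0.0528) or SUR 3 (0.0634). The second call held under all 18.

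Rab7b, a late endosome to Golgi Rab known to limit TLR4 signalling in macrophages (chr1:131688695-131715439), fell with LPS. It was at 166, 153 and 175 CPM in CON, 114, 120.2 and 129 CPM in LPS and 150.3, 146 and 153 CPM in SUR. All LPS libraries were below all others. It fell by 0.44 on the log2 scale from CON to LPS (SE 0.07, edgeR adjusted p = 0.00259). It was higher in SUR than in LPS by 0.31 (SE 0.07, edgeR adjusted p = 0.0179, and 0.000249 with the block). The second call was lost without LPS 1 (adjusted p = 0.0559), LPS 2 (0.0621), SUR 1 (0.0529), SUR 2 (0.059) or SUR 3 (0.0685). SUR libraries all lay under those of CON, but only just, with SUR 3 at 153.0 CPM and CON 2 at 153.2 CPM. The log2 difference between SUR and CON was -0.14 (SE 0.07, edgeR adjusted p = 0.645).

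The phagosome and lysosome-related organelle group of 6 held the largest change. Rab20, which is known to be induced in macrophages by inflammatory signals and to act in phagosome and endosome maturation (chr8:11453518-11478710), was at 16.6, 7.43 and 4.23 CPM in CON, 56.9, 61.7 and 56.2 CPM in LPS and 22.3, 21.9 and 22.2 CPM in SUR. The 3 groups did not overlap, with SUR between CON and LPS. CON was spread widely and CON 1 was its highest library, as it was for Tnf (above), for Nfkbia (240.3, 94.6 and 29.2 CPM in CON) and for Il1b (4.55, 1.40 and 0.0595 CPM); the part of this difference among CON libraries in the result was not tested. Rab20 was 6.16-fold higher in LPS than in CON, a log2 fold change of 2.62 (SE 0.38, edgeR adjusted p = 0.00151), with within-number values of 1.77, 3.03 and 3.69. Without CON 1 it was 3.33 and without all libraries numbered 1 it was 3.35.

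From LPS to SUR, Rab20 fell 2.63-fold, by 1.40 on the log2 scale (SE 0.36, edgeR adjusted p = 0.0271, and 0.000416 with the block). The 3 within-number values were close together at -1.35, -1.49 and -1.33. The adjusted p passed 0.05 without LPS 2 (0.0807), LPS 3 (0.0671), SUR 1 (0.0563), SUR 2 (0.0879) or SUR 3 (0.0892) and on log2 FPKM at a pseudocount of 0.1 (0.0518, limma). The fit gives all groups 1 spread per gene, so the wide CON values enter this test too. Between SUR and CON the log2 fold change was 1.23 (SE 0.37, edgeR adjusted p = 0.29, and 0.0177 with the block), and it was 1.92 without CON 1 and 0.875 without CON 3. In the annotation a noncoding RNA on the other strand, E230013L22Rik, overlaps exons of Rab20, and whether counting used strand is not given in the sources used here, so reads of the pair cannot be told apart.

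**Figure D4:**
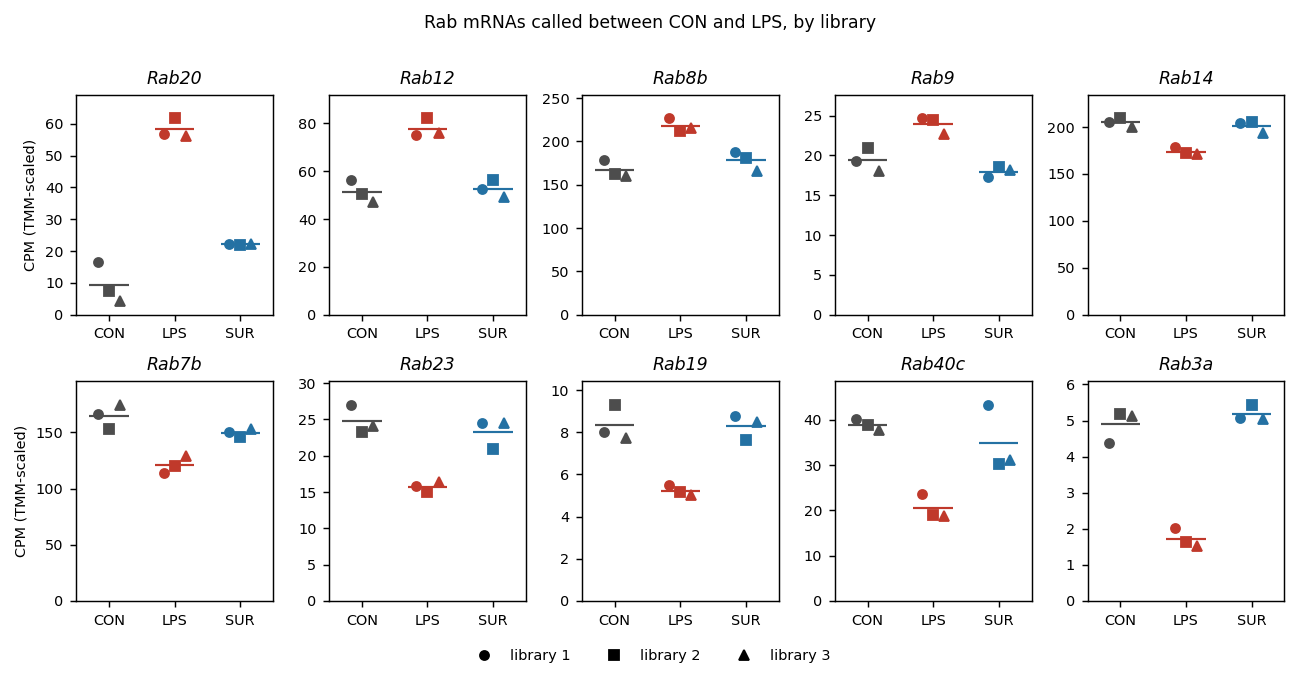
CPM (vertical axes, from 0) of the 10 Rab genes called between LPS and CON, in each of the 9 libraries, with shapes for the replicate number and lines for group means. The LPS points are separate from the CON points in all 10 panels, but the genes were chosen by this comparison, so that adds no support. The SUR points of Rab20 (21.9 to 22.3 CPM) lie in a wide gap between CON and LPS.

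The sequences before the starts of Rab20, with the largest rise, and Rab3a, with the largest fall, are shown with short stretches around the motif matches found in called members. They come from RefSeq (GRCm38.p6), 5′ to 3′ on the strand of the gene, and promoters were matched for 38 of 42 members. The upstream stretches end at the outermost start annotated by GENCODE. They are chr8:11478711-11478890 (minus strand) for Rab20 and chr8:70754453-70754678 (plus strand) for Rab3a. Capitals mark matches of the motifs searched, and neither upstream stretch holds any.
Rab20 upstream: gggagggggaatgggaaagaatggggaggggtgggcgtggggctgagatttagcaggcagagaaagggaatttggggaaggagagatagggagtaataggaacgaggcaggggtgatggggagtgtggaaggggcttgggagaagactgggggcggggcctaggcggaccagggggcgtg
Rab3a upstream: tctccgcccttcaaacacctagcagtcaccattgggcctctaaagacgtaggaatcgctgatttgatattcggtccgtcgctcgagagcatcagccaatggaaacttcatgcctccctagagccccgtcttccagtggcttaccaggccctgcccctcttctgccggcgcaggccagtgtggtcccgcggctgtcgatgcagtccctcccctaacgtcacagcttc
Rab20 site: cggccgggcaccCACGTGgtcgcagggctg
Rab23 site: cttcagtgctacCACGTGagtctcaggtgg
Rab19 site: agtgggagggattgcccttgTTTCCCTTTC

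The 3 sites lie at chr8:11478669-11478698 (minus strand), chr1:33719666-33719695 (plus strand) and chr6:39381323-39381352 (plus strand). The Rab20 and Rab19 sites overlap exons that GENCODE annotates for these genes, and the CACGTG of the Rab23 site lies before any exon. The motifs were chosen after values were seen and were searched on both strands in the 250 bases before each RefSeq start. CACGTG, bound by the TFEB and MYC family, was in 5 of 38 members (Rab20, Rab23, Rab21, Rab27a and Rab5a), or 13.2%, against 6.02% of all 32851 promoters and 10.2% of 9140 tested genes with a promoter. The interferon response core, GAAA followed after any 2 bases by GAAA, was in Rab19 alone (2.63% of members). It was in 2.98% of all promoters and 3.29% of tested genes. The NF-kappaB motif was in 2 members, Rab11a and Rab28 (5.26%), against 7.25% of all promoters and 10.65% of tested genes. It was in 0 of the 9 called members that had a promoter sequence. TGANTCA, the AP-1 motif, was in Rab34 alone (2.63% of members), against 6.75% of all promoters and 5.31% of tested genes. TGACGTCA, the CREB motif, was in Rab5a alone (2.63%), against 1.55% of all promoters and 3.16% of tested genes. Members and tested genes are counted per gene over all its promoters, while all promoters are counted singly. The members' promoters had a median of 18 CpG against 6 for all promoters and a median GC content of 62.8% against 52.4%. All promoters include those of genes that were not tested here. These medians were not taken over tested genes, so the difference is not shown to be particular to Rab genes. A match describes letters in this window and shows neither binding nor its absence elsewhere.

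Of the other phagosome and lysosome-related organelle Rabs, Rab14, which acts on phagosomes and between Golgi and endosomes (chr2:35180205-35201120), was called. It was at 206, 209 and 199.8 CPM in CON, 178, 172 and 171 CPM in LPS and 204, 206 and 194 CPM in SUR. All LPS libraries lay below the rest. The fall from CON to LPS was small, at -0.24 on the log2 scale (SE 0.05, edgeR adjusted p = 0.016, and 0.000362 with the block). The rise to SUR was also small, at 0.21 (SE 0.05, edgeR adjusted p = 0.0295, and 0.000878 with the block). The first call was lost without CON 2 (adjusted p = 0.0549), LPS 2 (0.0591) or LPS 3 (0.0657). The second was lost without LPS 2 (0.0929), LPS 3 (0.101), SUR 1 (0.0932), SUR 2 (0.136) or SUR 3 (0.0537), and with no low-count filter (0.0709).

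Rab32, which builds lysosome-related organelles and helps macrophages restrict bacteria, was at 68.6, 86.02 and 81.2 CPM in CON, 79.1, 115 and 115 CPM in LPS and 67.6, 83.9 and 80.0 CPM in SUR. Each number 1 library was the lowest of its group, and LPS exceeded CON and SUR within every number. Its log2 fold changes were 0.39 between LPS and CON (SE 0.16, edgeR adjusted p = 0.131, and 0.000282 with the block) and -0.42 between SUR and LPS (SE 0.16, edgeR adjusted p = 0.108, and 0.000189 with the block). Rab43, a phagosome and Golgi Rab, was lower in LPS than in CON only with the block, at -0.17 (edgeR adjusted p = 0.106 without and 0.0104 with it), and higher in SUR than in LPS at 0.17 (0.103 without and 0.00936 with it). Rab34, a phagosome maturation Rab, differed only with the block: it was lower in SUR than in LPS at -0.17 (edgeR adjusted p = 0.647 without and 0.00554 with it) and than in CON at -0.15 (0.961 without and 0.0352 with it). Rab39, the lowest member, was at 1.40, 2.07 and 2.26 CPM in CON, 1.08, 0.817 and 1.65 CPM in LPS and 1.61, 3.13 and 2.92 CPM in SUR. At these few counts its log2 difference between SUR and LPS was 1.11 (SE 0.35, edgeR adjusted p = 0.0633, and 0.00434 with the block), and that between LPS and CON was -0.69 (SE 0.36, edgeR adjusted p = 0.259).

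Among the 7 secretory Rabs, Rab8b rose and Rab3a fell with LPS. Rab3a, a Rab of regulated secretion best known from synaptic vesicles (chr8:70754679-70758677), was at 4.38, 5.17 and 5.12 CPM in CON, 2.03, 1.63 and 1.52 CPM in LPS and 5.07, 5.44 and 5.03 CPM in SUR. LPS libraries lay far below the others, and CON and SUR overlapped. It was 2.82-fold lower in LPS than in CON, a log2 fold change of -1.50 (SE 0.16, edgeR adjusted p = 0.000346), and 2.99-fold higher in SUR than in LPS, at 1.58 (SE 0.16, edgeR adjusted p = 0.000425). Both calls held under all 18 alternatives, with values of -1.63 to -1.41 and of 1.49 to 1.71 when single libraries were left out. Exons of Mpv17l2, a protein-coding gene on the other strand, overlap those of Rab3a. The deposited table places Rab3a, like Rab11b, on a sequence outside the main chromosomes.

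Rab8b, which carries vesicles from the Golgi and recycling endosomes to the surface (chr9:66843664-66919687), was at 178, 162 and 160.1 CPM in CON, 227, 212 and 215 CPM in LPS and 188, 180.3 and 166 CPM in SUR. LPS lay above both other groups in every library. The log2 fold change was 0.39 between LPS and CON (SE 0.07, edgeR adjusted p = 0.00497), a call kept under all 18 alternatives. It was -0.29 between SUR and LPS (SE 0.07, edgeR adjusted p = 0.0217, and 0.000165 with the block). The second call was lost with upper-quartile scaling (0.0701), on log2 FPKM (0.182, limma, at both pseudocounts) and without LPS 1 (0.0653), LPS 3 (0.0593), SUR 2 (0.0511) or SUR 3 (0.0899).

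Rab3d, a granule Rab related to Rab3a, was at 33.3, 36.6 and 38.3 CPM in CON, 23.0, 31.7 and 27.7 CPM in LPS and 30.8, 36.3 and 35.9 CPM in SUR. All LPS libraries were below those of CON. Its log2 fold change between LPS and CON was -0.39 (SE 0.12, edgeR adjusted p = 0.0593, and 0.000619 with the block), and between SUR and LPS it was 0.32 (SE 0.12, edgeR adjusted p = 0.114, and 0.00234 with the block). Rab27a, which docks lysosome-related organelles and exosome-bearing endosomes at the surface, was at 5.14, 5.84 and 7.56 CPM in CON, 4.06, 5.24 and 6.60 CPM in LPS and 5.53, 5.38 and 6.67 CPM in SUR. Its groups overlapped, with log2 fold changes of -0.22 (SE 0.21, edgeR adjusted p = 0.594) and 0.15 (SE 0.21, edgeR adjusted p = 0.727). Rab8a, Rab10 and Rab13 were not called in any comparison, with or without the block.

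Of the 9 ER and Golgi Rabs, Rab19 was called. Rab19, a little studied Golgi-associated Rab (chr6:39381175-39390380), was at 7.998, 9.31 and 7.74 CPM in CON, 5.52, 5.17 and 5.02 CPM in LPS and 8.76, 7.63 and 8.48 CPM in SUR. LPS was lowest in all numbers, and CON and SUR overlapped. Its log2 fold changes were -0.67 between LPS and CON (SE 0.12, edgeR adjusted p = 0.00497) and 0.66 between SUR and LPS (SE 0.12, edgeR adjusted p = 0.00649), and both calls held under all 18 alternatives. Rab6a, the main Rab of traffic within and out of the Golgi, was higher in LPS than in CON with the block alone, at 0.15 (edgeR adjusted p = 0.286 without and 0.0181 with it), and lower in SUR than in LPS, at -0.16 (0.239 without and 0.0126 with it). Its relative Rab6b was lower with the block alone, at -0.37 between LPS and CON (edgeR adjusted p = 0.237 without and 0.00469 with the block). Rab1a, Rab1b, Rab2a, Rab2b, Rab18 and Rab33b were not called in any comparison, with or without the block.

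The last group holds Rabs of the cilium or of less settled place. Rab23, known as a negative regulator of Hedgehog signalling (chr1:33719887-33742564), was at 27.0, 23.2 and 24.1 CPM in CON, 15.8, 14.98 and 16.4 CPM in LPS and 24.6, 20.9 and 24.4 CPM in SUR. LPS lay below all other libraries. Its log2 fold changes were -0.65 between LPS and CON (SE 0.10, edgeR adjusted p = 0.00177) and 0.57 between SUR and LPS (SE 0.10, edgeR adjusted p = 0.00463). Rab40c, an atypical Rab that joins a ubiquitin ligase (chr17:25882114-25919727), was at 40.2, 38.8 and 37.7 CPM in CON, 23.5, 19.1 and 18.7 CPM in LPS and 43.4, 30.2 and 31.1 CPM in SUR. SUR 1 was above CON and SUR 2 and 3 were below it, while LPS was lowest. Its log2 fold changes were -0.93 between LPS and CON (SE 0.15, edgeR adjusted p = 0.00262) and 0.77 between SUR and LPS (SE 0.15, edgeR adjusted p = 0.00798). All 4 calls of these genes held under all 18 alternatives. Exons of Gm16278, annotated as antisense, overlap those of Rab40c. The deposited table gives Rab40c an end at 25939203, past the GENCODE end, and the plus strand, where GENCODE has the minus strand. Rab7, Rab31, Rab28, Rab2b and Rab11b are likewise deposited on the plus strand, where RefSeq has the minus strand. Whether reads from outside the gene were counted was not tested. Rab28 was not called in any comparison.

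Close relatives could be set against each other within a library, since a ratio of FPKM values does not depend on library scaling. Over 10 pairs, Rab3a against Rab3d had ratios of 0.398, 0.415 and 0.402 in CON, 0.268, 0.154 and 0.166 in LPS and 0.499, 0.453 and 0.425 in SUR. The 3 groups did not overlap. Rab7b against Rab7 was at 0.125, 0.126 and 0.147 in CON, 0.0832, 0.098 and 0.105 in LPS and 0.117, 0.118 and 0.131 in SUR, with LPS lowest. Rab8b against Rab8a was at 1.01, 0.807 and 0.873 in CON and 1.31, 1.14 and 1.18 in LPS. Each of these 3 differences between LPS and CON reached the smallest p that an exact two-sided permutation test allows with 3 against 3, 0.1, and 0.333 after Benjamini-Hochberg adjustment over the 10 pairs, so none could pass 0.05. The 7 other pairs overlapped between LPS and CON. Rab3a, Rab7b and Rab8b were already called between LPS and CON from the same libraries, so their ratios are not separate support. A pair such as Rab1a and Rab1b (ratios of 0.79 to 1.08 in all libraries) may share reads, as the counting could split near-identical stretches.

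The enzymes that switch Rabs were described from lists of known regulators. Of 36 GEFs tested, 5 were higher and 3 lower in LPS than in CON, and 4 were higher and 3 lower in SUR than in LPS, by edgeR without the block. These are 13.9% and 8.33%, against 8.98% and 9.36% of all tested genes, and 11.1% and 8.33%, against 9.29% and 7.93%. With the block these counts were 7 and 10 (19.4% and 27.8%, against 20.1% and 21.7%), and 11 and 6 (30.6% and 16.7%, against 22.6% and 22.7%). The median log2 fold change of the GEFs between LPS and CON was 0.02, against -0.01 over all tested genes. Rabgef1, the exchange factor Rabex-5 that activates Rab5, was at 26.7, 23.4 and 27.3 CPM in CON, 57.2, 66.2 and 66.9 CPM in LPS and 25.5, 28.4 and 30.6 CPM in SUR. LPS lay far above the others, while CON and SUR overlapped. It was 2.46-fold higher in LPS than in CON (log2 fold change 1.30, SE 0.10, edgeR adjusted p = 7.06e-05) and 2.25-fold lower in SUR than in LPS (-1.17, SE 0.10, edgeR adjusted p = 0.000235). Dennd5a, a DENN-domain exchange factor, was 1.36-fold higher in LPS than in CON (edgeR adjusted p = 0.000632) and Vps9d1, with the VPS9 domain of Rab5 exchange factors, was 1.47-fold lower (edgeR adjusted p = 0.00291).

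Of 36 GAPs tested, 2 were higher and 1 lower in LPS than in CON (8 and 5 with the block), and 1 was higher and 2 lower in SUR than in LPS (4 and 7 with the block). Between LPS and CON these are 5.56% and 2.78%, against 8.98% and 9.36% of all tested genes, and with the block 22.2% and 13.9%, against 20.1% and 21.7%. Between SUR and LPS they are 2.78% and 5.56%, against 9.29% and 7.93%, and with the block 11.1% and 19.4%, against 22.6% and 22.7%. Their median log2 fold change between LPS and CON was -0.01. Tbc1d1, a GAP known from glucose transporter traffic, was at 43.3, 37.9 and 43.7 CPM in CON, 60.4, 59.4 and 63.0 CPM in LPS and 39.8, 35.7 and 40.1 CPM in SUR. LPS was highest in each number. Its log2 fold changes were 0.55 (SE 0.08, edgeR adjusted p = 0.00134) and -0.66 (SE 0.08, edgeR adjusted p = 0.000838). Tbc1d14, which binds Rab11 and limits autophagy, was 1.34-fold lower in LPS than in CON (edgeR adjusted p = 0.00655) and 1.35-fold higher in SUR than in LPS (0.00658). Of 7 tested genes of prenylation, escort and GDI, 1 was higher and 0 lower in LPS than in CON, and 0 were higher and 1 lower in SUR than in LPS. With the block 2 were higher in LPS than in CON and 2 were lower in SUR than in LPS. With 7 genes, 1 call is 14.3% and 2 calls are 28.6%, so these counts cannot be read against the shares of all tested genes given above.

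Effectors bind the active Rab and do its work. Of 61 listed effectors and tethers, 54 were in the table and 44 were tested. In LPS 4 were higher and 5 lower than in CON (11 and 13 with the block), and in SUR 4 were higher and 4 lower than in LPS (11 and 13 with the block). Between LPS and CON these are 9.09% and 11.4%, against 8.98% and 9.36% of all tested genes, and with the block 25% and 29.5%, against 20.1% and 21.7%. Between SUR and LPS they are 9.09% and 9.09%, against 9.29% and 7.93%, and with the block 25% and 29.5%, against 22.6% and 22.7%. Their median log2 fold change between LPS and CON was -0.03. Rab11fip1, an effector through which Rab11 sorts cargo for recycling, was at 36.1, 27.0 and 23.2 CPM in CON, 183, 257 and 258 CPM in LPS and 34.9, 41.3 and 50.2 CPM in SUR. LPS was several times higher than every other library, and CON and SUR overlapped. It was 8.08-fold higher in LPS than in CON (log2 fold change 3.01, SE 0.21, edgeR adjusted p = 5.6e-05) and 5.52-fold lower in SUR than in LPS (-2.46, SE 0.21, edgeR adjusted p = 0.000227). Fyco1, which links Rab7-bearing organelles to kinesin, was 1.46-fold lower in LPS than in CON (edgeR adjusted p = 0.00407) and 1.45-fold higher in SUR than in LPS (0.00521).

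The regulators and effectors given with values here were chosen, among the called genes with the largest changes, because their calls held under the alternatives, so their stability says nothing about the lists. Other called genes of these lists are given as counts only. In SUR against CON, 0 genes of any of the 4 lists were called without the block, and with it the calls higher and lower were 2 and 1 for GEFs, 1 and 1 for GAPs, 1 and 1 for prenylation, escort and GDI, and 2 and 7 for effectors and tethers. All tested genes had shares of 7.37% and 4.18%, against which the GEFs had 5.56% and 2.78%, the GAPs 2.78% and 2.78%, and the effectors 4.55% and 15.9%. Set beside Rab11fip1 at 3.01 and Rabgef1 at 1.30 on the log2 scale, their Rabs Rab11a and Rab5a were at 0.15 and 0.27 between LPS and CON, and the differences between these genes were not tested.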

How the data were processed

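RNA sequencing was deposited for 9 libraries of total RNA. HISAT2 2.0.4 and the build GRCm38 are named, per the submitters' processing notes. Neither the counting tool nor its strand setting is given in the sources used here. Expected counts as deposited, per the file headers, are estimated reads per gene without scaling; 93.4% of values were whole (no remainder), and all were rounded. The authors' FPKM values, per the file headers, are scaled for length and depth. The deposited TPM values, the authors' log2 fold changes and the authors' q-values were read only to check the table.

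Genes were kept by filterByExpr (11281 of 14771) and scaled by TMM. Differences were tested with the quasi-likelihood F test of edgeR 4.0.16 in R 4.3.3, with all 9 libraries and a mean per group, and Benjamini-Hochberg adjustment over all tested genes at 0.05. CPM are TMM-scaled. Standard errors come from the F statistic. The fit was run on simulated counts with the same spread for every gene and no difference between replicate numbers. That run does not show how the fit performs on libraries that differ by number. No label says that replicates were separate cultures, so p-values measure the spread between these libraries, which may be technical. Replicate numbers come from the labels. Deviations from group means correlated at 0.43 to 0.80 in all 9 same-numbered pairs and at -0.64 to 0.44 in 18 others. Among libraries 2 and 3 alone, these ranges were 0.43 to 0.59 and 0.35 to 0.44, so much of the contrast lies in number 1. The numbers were taken to pair the libraries, and a replicate block was fitted as an alternative. The main fit was kept without the block, so its counts and its uncalled members leave this pairing out.

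Values per library are given for members called in any comparison and for Rab5a, Rab7, Rab11a, Rab27a and Rab20. Those of Rab32, Rab39 and Rab3d were added after their values were seen. Up to 4 called genes of each regulator list could be named, those with the largest changes, and the ones given with values were then chosen for calls that held. Members, lists and compartments were chosen with earlier results of these data known. Alternatives were DESeq2 1.42.0 and its size factors, upper-quartile scaling, limma-voom 3.58.1, no count filter, a higher count minimum of 100 for members, limma on log2 (FPKM + 0.1 or 1), the block, leaving out each library and, added after seeing the data, the FPKM ratios of relatives and the description of libraries numbered 1. Gene positions and overlaps are from GENCODE vM21. Figures used matplotlib 3.10.9 in Python 3.11.15.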

Additional observations from a re-analysis of the deposited data

How the results depend on the processing

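The 20 calls of members in LPS against CON and SUR against LPS gave 360 values under alternatives: 321 kept the call, 39 lost it and 0 changed sign. Of members called higher in LPS than in CON, the count was 8 with the replicate block and 3 to 4 without single libraries. The count lower in SUR than in LPS was 11 with the block, 2 on log2 FPKM at a pseudocount of 0.1 and 2 to 4 without single libraries, the 2 arising without LPS 3, SUR 2 or SUR 3. In SUR against CON, 1 member was higher with DESeq2, 1 with the replicate block and 1 without the libraries numbered 1, and 0 to 1 without single libraries (1 without CON 1). The count lower there was 1 with the block and 1 without the libraries numbered 1.

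Without the libraries numbered 1, 5 members were higher and 8 lower in LPS than in CON, and 8 higher and 6 lower in SUR than in LPS. Shares of all tested genes were taken for the main and blocked fits alone, so the other counts in this section cannot be set against them. Some members that were not called changed sign. Rab7 had log2 values of -0.0622 (upper quartile) and -0.105 (both FPKM settings) in LPS against CON, and 0.0383, 0.0901 and 0.0898 in SUR against LPS. Rab11a had 0.017 and 0.0167 on FPKM in SUR against LPS and -0.0104 in SUR against CON without the libraries numbered 1. Leaving out single libraries gave -0.0214 to 0.0879 for Rab7 in LPS against CON, -0.0951 to 0.00283 in SUR against LPS and -0.0488 to 0.0224 in SUR against CON. In SUR against CON it gave -0.0881 to 0.107 for Rab11a, -0.0199 to 0.11 for Rab12, -0.0621 to 0.0748 for Rab19, -0.198 to 0.094 for Rab27a and -0.0505 to 0.201 for Rab5a, and in SUR against LPS it gave -0.0152 to 0.334 for Rab27a. The cause of these changes was not tested. The block changed no call of a member beyond those given beside the results. Rab39, Rab3a and Rab27a had the fewest counts of the members, which limits the precision of their values, though both calls of Rab3a held.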
